A study of Homo sapiens with 6 samples.

Results

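Plasma carriers are proteins that hepatocytes secrete to move iron, copper, heme, lipids, hormones and vitamins through the blood. The 10 genes considered here were ALB, TTR, TF, RBP4, HPX, HP, CP, AHSG, AMBP and VTN. They were chosen by name, with earlier results of these data known. A gene was represented by its brightest row, or transcript cluster (the group of probe sets that covers a gene), among those annotated with its symbol alone. That gave 9 of the 10 listed genes, out of 15949 genes named in this way on the array. HP, the carrier of free hemoglobin, was listed on 2 clusters, each annotated also with its near-identical paralog HPR, so no value is given for it.

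The cells were PLC/PRF/5, an established line from a human hepatocellular carcinoma. They received either siRNAs against SLU7 (3 arrays) or irrelevant control siRNA named siGL (3 arrays), all with the same lipid reagent, and RNA was taken after 48 h. The labels number siGL from 1 to 3, read here as replicate numbers, and do not settle whether all 3 control arrays had the same siRNA. SLU7 is a splicing factor of the second catalytic step, and the study asks what its loss changes in liver cells. Whether replicates were separate cultures is not in the labels, and the p-values therefore cover only array-to-array spread, part or all of which may be technical. As a single tumour line, the cells model hepatocytes only in part. Each array (Affymetrix Human Exon 1.0 ST) gave 1 log2 expression value for each of 18708 clusters. Differences are SLU7 siRNA minus control siRNA, and a cluster was called when its limma p, adjusted over all clusters, was under 0.05.

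In blood plasma, albumin (ALB) binds fatty acids, bilirubin and drugs, transferrin (TF) binds ferric iron, and transthyretin (TTR) carries thyroxine and holds the retinol carrier RBP4 in circulation. Hemopexin (HPX) binds free heme and ceruloplasmin (CP) carries copper and oxidises iron. Liver transcription of such genes depends on factors of the HNF4, FOXA and C/EBP families. In inflammation the liver makes more HP, HPX and CP and less ALB, TTR, TF, RBP4 and AHSG.

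The promoters of AHSG and ALB are shown because AHSG had the largest difference of the 9 genes and ALB is the standard hepatocyte marker. Both are the 250 bases before the RefSeq start site (GRCh38.p14, plus strand), at chr3:186612810-186613059 for AHSG and chr4:73404037-73404286 for ALB. Capitals mark every match, on either strand, to 5 motifs.
AHSG promoter: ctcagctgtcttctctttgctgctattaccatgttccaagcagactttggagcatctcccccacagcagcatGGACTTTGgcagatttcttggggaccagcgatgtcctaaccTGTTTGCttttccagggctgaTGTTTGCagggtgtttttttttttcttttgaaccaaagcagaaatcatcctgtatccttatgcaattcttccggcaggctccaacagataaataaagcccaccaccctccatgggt
ALB promoter: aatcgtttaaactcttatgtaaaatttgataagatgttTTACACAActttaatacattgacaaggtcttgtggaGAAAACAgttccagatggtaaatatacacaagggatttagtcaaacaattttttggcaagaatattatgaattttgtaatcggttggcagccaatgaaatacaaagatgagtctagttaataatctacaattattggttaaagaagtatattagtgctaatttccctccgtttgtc

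The motifs searched were CAAAGTCC for HNF4, TGTTTNC for FOXA, TTGNGNAA for C/EBP, TATAAA for the TATA box and TTCNNNGAA for STAT factors. The AHSG window held an HNF4 match from -178 to -171 and FOXA matches from -137 to -131 and from -116 to -110, counted from the start site. The ALB window held a C/EBP match from -212 to -205 and a FOXA match from -176 to -170. None of these matches overlapped another. Of all 35116 RefSeq promoters of the same length, 15.5% held the FOXA motif, 10.8% the C/EBP motif and 1.02% the HNF4 motif. The TATA box motif was in 10.7% and the STAT motif in 6.57%. RefSeq promoters were matched for 7 of the 9 genes, and TTR and CP had none in the table used. The FOXA motif was in a promoter of 4 of the 7 genes (AHSG, ALB, AMBP and VTN) and the C/EBP motif in 3 (ALB, TF and VTN). The STAT motif was in 2 (RBP4 and VTN), the HNF4 motif in 1 (AHSG) and the TATA box motif in 1 (RBP4). The 7 genes had 10 promoters and a match in any of them counted, whereas the percentages are per promoter. The hits are matches of letters, not measured binding.

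SLU7 itself (cluster 2884684) had log2 values of 5.84, 5.58 and 6.21 on the SLU7 siRNA arrays, against 7.89, 7.01 and 7.24 on the control arrays. The groups did not overlap, and the difference was -1.51 ± 0.31 (SE) log2 units, with a limma adjusted p of 0.078, outside the threshold. Replicate 1 of SLU7 siRNA and replicate 2 of control siRNA lay together at one end of principal component 1, which carried 36.6% of the variance, away from the remaining 4 arrays. The differences of the carriers and of ASGR1 and ASGR2 are therefore also given for this outlying pair (a difference of single arrays, with no error) and for the remaining 4 arrays. Some markers of the liver lineage lay above the median cluster and others below it. KRT18, a keratin of simple epithelia, averaged 12.67 ± 0.04 with SLU7 siRNA and 12.86 ± 0.14 with control siRNA (SD, n = 3), and APOA1 averaged 10.62 ± 0.33 with SLU7 siRNA and 11.55 ± 0.29 with control siRNA. Below the median cluster were the fetal marker AFP (mean 5.21 with SLU7 siRNA and 6.01 with control siRNA), SERPINA1 (4.56 with SLU7 siRNA and 5.07 with control siRNA) and APOH (4.36 with SLU7 siRNA and 4.83 with control siRNA). Of 11 measured hepatocyte and hepatoma markers, 10 had a difference below 0 (GPC3 was at 0.18), with a median difference of -0.51 log2 units, and 1 (ASGR1, described further on) was called lower. Over all clusters, 49.5% were below 0 and 0.299% were called lower. Every SLU7 siRNA array lay below every control array for 9.21% of all clusters, and for 7 of the 11 markers. The log2 of their summed linear level was 13.52 to 13.67 with SLU7 siRNA and 13.99 to 14.10 with control siRNA. Such a sum mainly follows its brightest genes, and KRT18 was the brightest here. The part of these markers in the results was not tested. The 8 measured blood and endothelial markers ran from PTPRC (mean 2.13 with SLU7 siRNA and 2.05 with control siRNA) to PECAM1 (6.82 with SLU7 siRNA and 7.05 with control siRNA), which like KDR lay above the median cluster. None of the 8 (median -0.16, summed level 8.65 to 9.19 with SLU7 siRNA and 8.92 to 9.13 with control siRNA) was called, with PECAM1 at -0.24 ± 0.35 (SE) and KDR at -0.28 ± 0.32. The 10 fibroblast and stellate cell markers held no call either (median -0.11, summed level 8.98 to 9.07 with SLU7 siRNA and 8.96 to 9.22 with control siRNA). The brightest was PDGFRB (mean 8.24 with SLU7 siRNA and 8.36 with control siRNA), at -0.12 ± 0.24.

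All 9 measured carriers had a difference below 0 after SLU7 siRNA, from -1.01 log2 units for AHSG to -0.06 for TTR, and none passed the limma test over all clusters. Their median was -0.27 log2 units, against 0.0043 over all clusters, of which 49.5% were below 0. Over the table, 0.433% of clusters were called and 0.299% were called lower, so a count of 0 among 9 genes is close to that background. At an unadjusted limma p under 0.05, 2 carriers were lower (AHSG and CP), against 6.54% of all clusters. The same 2 had every SLU7 siRNA array below every control array, which held for 9.21% of all clusters. With 3 arrays against 3 the exact two-sided permutation test cannot go below p = 0.1, the value it gave for both. Of these 2, CP was dim, with every value under the lower quartile of its array. Without control replicate 2, or without SLU7 siRNA replicate 2, 7 of the 9 differences were below 0.

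**Figure D1:**
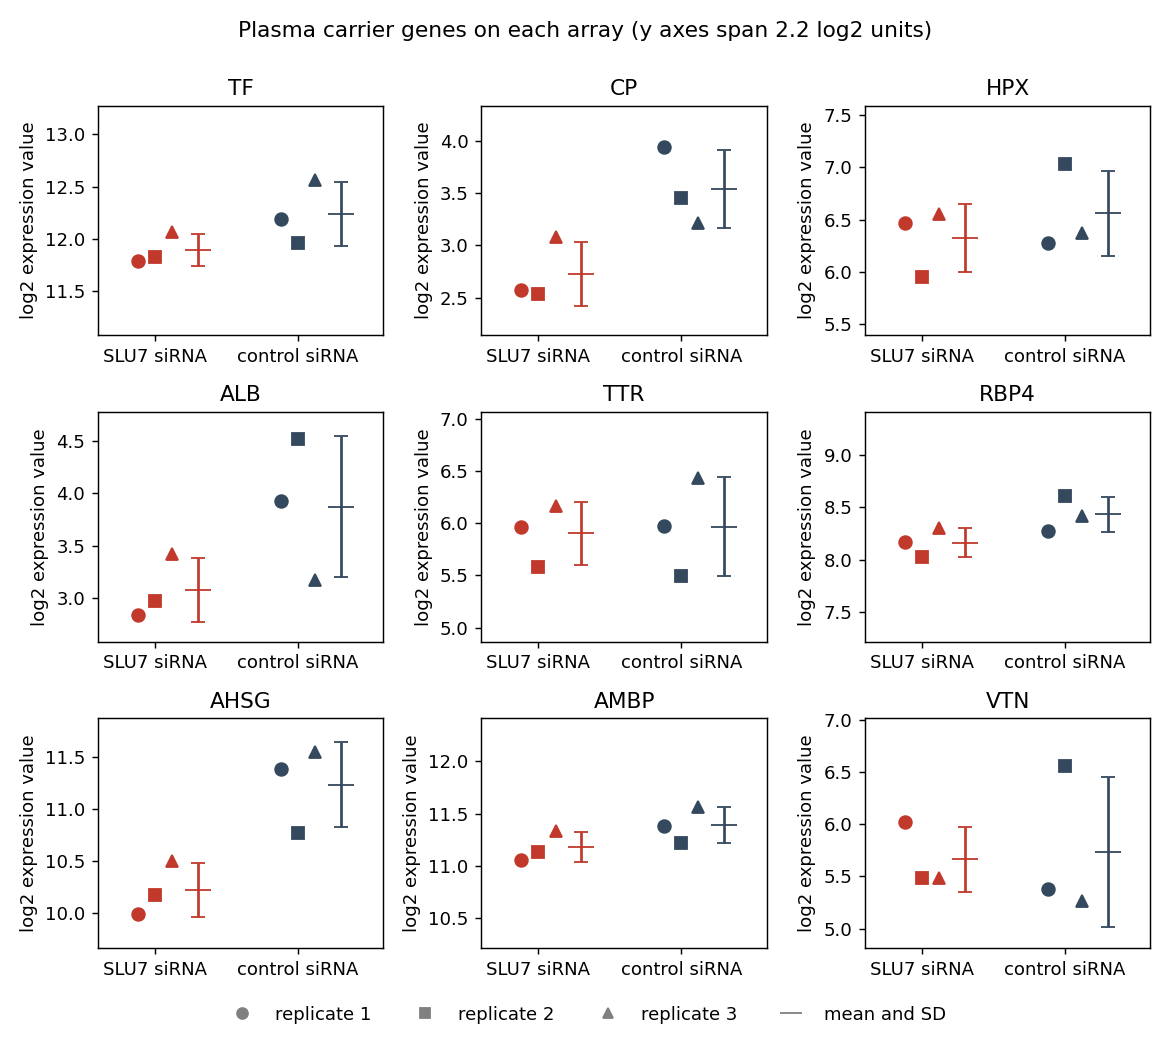
Log2 expression value (y axis) of the 9 measured plasma carrier genes on each of the 6 arrays, SLU7 siRNA in red and control siRNA in dark blue, with the marker shape giving the replicate and the bar the mean and SD (n = 3). The groups lie apart without overlap for AHSG and CP and overlap for the other 7 genes.

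The metal and heme carriers comprised TF, CP and HPX. Transferrin was bright on every array, with TF at 11.78, 11.83 and 12.07 with SLU7 siRNA, against 12.19, 11.95 and 12.56 with control siRNA. The highest SLU7 siRNA array lay above the lowest control array, so the groups overlapped. The difference was -0.34 ± 0.26 (SE) log2 units, or 1.27-fold lower, with a 95% interval of -0.95 to 0.26 and a limma adjusted p of 0.678. It was -0.17 in the outlying pair, -0.43 in the remaining 4 arrays and -0.18 without control replicate 3. The gene had a second, dimmer cluster (2643315), where the difference ran the other way, at 1.00 ± 0.49 log2 units (adjusted p = 0.445). That cluster read 4.23, 5.77 and 4.14 with SLU7 siRNA and 4.36, 3.21 and 3.56 with control siRNA, mostly under the lower quartile of the arrays, which lay between 4.86 and 4.98. With the mean of both clusters the TF difference was 0.33, so the direction for transferrin depends on the cluster used.

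Ceruloplasmin (CP) read 2.57, 2.53 and 3.08 with SLU7 siRNA, against 3.94, 3.45 and 3.22 with control siRNA. The groups did not overlap, and the difference was -0.81 ± 0.30 (SE) log2 units, or 1.76-fold lower, with a 95% interval of -1.49 to -0.14 and an adjusted p of 0.282. It was -0.89 in the outlying pair and -0.78 in the remaining 4 arrays. Every CP value was under the lower quartile of its array, so whether CP RNA was detected and the size of this difference are uncertain. Hemopexin (HPX) read 6.46, 5.95 and 6.55 with SLU7 siRNA and 6.27, 7.03 and 6.37 with control siRNA, with overlapping groups. Its difference of -0.23 ± 0.31 (95% interval -0.93 to 0.46, adjusted p = 0.85) was -0.56 in the outlying pair and -0.07 in the remaining 4 arrays. It was 2.07e-04 without control replicate 2 and -0.05 without SLU7 siRNA replicate 2.

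Among the carriers of small molecules and hormones, ALB was dim on all arrays. It read 2.84, 2.97 and 3.42 with SLU7 siRNA, against 3.92, 4.52 and 3.17 with control siRNA. Control replicate 3 lay below SLU7 siRNA replicate 3, so the groups overlapped, and the control arrays were the more spread (SD 0.30 with SLU7 siRNA and 0.68 with control siRNA). The difference was -0.80 ± 0.37 (SE) log2 units, or 1.74-fold lower, with a 95% interval of -1.64 to 0.05 and an adjusted p of 0.419. It was -1.68 in the outlying pair, -0.35 in the remaining 4 arrays and -0.47 without control replicate 2. All ALB values were under the lower quartile of their arrays, so whether ALB RNA was detected and the size of its difference are uncertain too. In bulk RNA, fewer cells that express a gene and less of its RNA per cell cannot be told apart.

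Transthyretin (TTR) read 5.97, 5.58 and 6.17 with SLU7 siRNA and 5.97, 5.49 and 6.44 with control siRNA. The groups covered nearly the same range, and the difference was -0.06 ± 0.32 log2 units (95% interval -0.79 to 0.66, adjusted p = 0.975). It was 0.48 in the outlying pair, -0.33 in the remaining 4 arrays and 0.17 without control replicate 3. RBP4, which travels bound to TTR, read 8.17, 8.02 and 8.30 with SLU7 siRNA and 8.28, 8.61 and 8.42 with control siRNA. Its difference of -0.27 ± 0.24 (95% interval -0.82 to 0.28, adjusted p = 0.741) was below 0 in both subsets, at -0.44 in the outlying pair and -0.19 in the remaining 4 arrays.

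The remaining carriers are glycoproteins with several partners. AHSG encodes fetuin-A, which binds calcium phosphate and limits mineral deposition. It read 9.99, 10.17 and 10.50 with SLU7 siRNA, against 11.39, 10.77 and 11.54 with control siRNA. Every SLU7 siRNA array lay below every control array, and the difference was -1.01 ± 0.30 (SE) log2 units, or 2.02-fold lower, with a 95% interval of -1.69 to -0.34. The adjusted p was 0.177, the lowest among the 9 genes. The difference was -0.78 in the outlying pair and -1.13 in the remaining 4 arrays, and ran from -1.24 to -0.86 with any 1 array left out. AHSG was bright on every array, unlike CP and ALB. It was called in 2 of the alternative fits, with array weights and with the outlying pair as a block (adjusted p = 0.0466 for the block, and 0.0466 to 0.432 over its alternatives).

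AMBP, the precursor of the heme-binding alpha-1-microglobulin and the protease inhibitor bikunin, had the smallest range over the 6 arrays. It read 11.06, 11.14 and 11.34 with SLU7 siRNA and 11.38, 11.22 and 11.56 with control siRNA, a difference of -0.21 ± 0.24 log2 units (95% interval -0.77 to 0.34, adjusted p = 0.82). It was -0.16 in the outlying pair, -0.24 in the remaining 4 arrays and -0.12 without control replicate 3. VTN encodes vitronectin, an adhesive protein that binds integrins and the inhibitor PAI-1. It read 6.03, 5.48 and 5.49 with SLU7 siRNA and 5.38, 6.56 and 5.26 with control siRNA, and its difference was -0.07 ± 0.38 (95% interval -0.95 to 0.81, adjusted p = 0.977). The outlying pair held its highest values, averaging 6.29 against 5.40 on the remaining 4 arrays. The VTN difference was -0.54 in the outlying pair and 0.16 in the remaining 4 arrays.

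**Figure D2:**
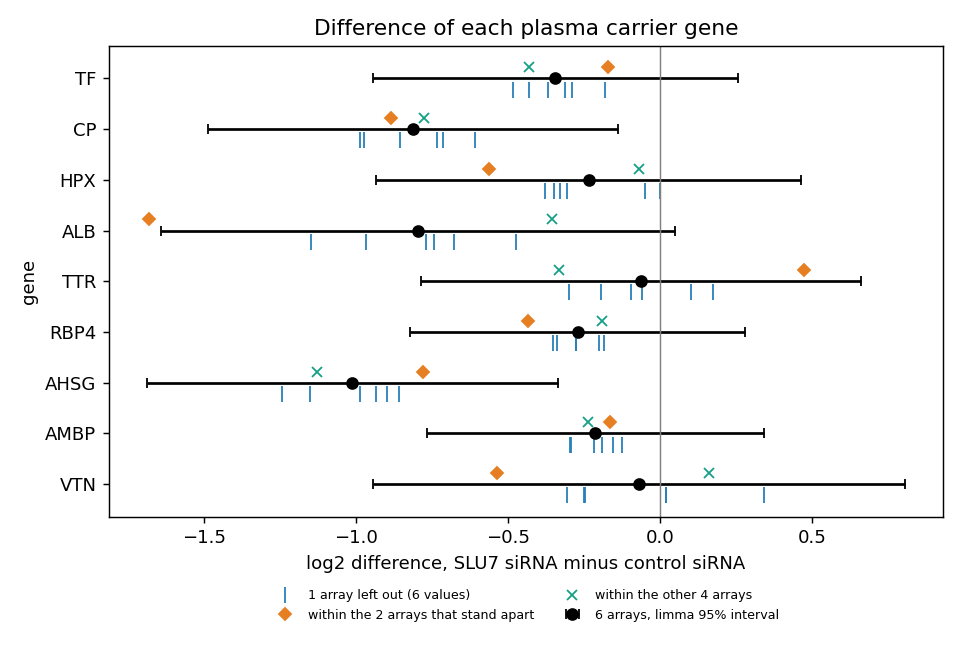
Log2 difference, SLU7 siRNA minus control siRNA (x axis), for each plasma carrier gene (y axis), with the limma 95% interval, the values with 1 array left out, and the values in the outlying pair (named on the plot as the 2 arrays that stand apart) and in the remaining 4 arrays. The intervals of AHSG and CP do not reach 0, while TTR, HPX and VTN have values on both sides of 0 when arrays are left out.

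The array on which the carriers were lowest was SLU7 siRNA replicate 1 for 4 genes and SLU7 siRNA replicate 2 for 3. The highest was control replicate 2 for 4 genes and control replicate 3 for another 4. No carrier had its highest value on an SLU7 siRNA array. The range over the 6 arrays ran from 0.51 log2 units for AMBP to 1.68 for ALB. Of the 5 carriers known to fall in inflammation, the median difference was -0.34. CP and HPX, which rise in inflammation, were also below 0.

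Likeness to ALB and TF was measured as the root mean square distance between row-centred log2 values over the 6 arrays, among 8462 clusters with 1 symbol and a mean above the median cluster. The closest to TF was RASSF7 (distance 0.048 log2 units), followed by GFUS (0.085) and ASCC1 (0.085). The closest to ALB, whose values were all under the lower quartile of their arrays, was TWF1 (0.172), followed by AFF3 (0.214) and DENND4A (0.235). Such a search always finds closest clusters, and shared regulation was not tested.

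The receptors that take up or recycle carriers held the single called gene among the related lists. ASGR1, a subunit of the asialoglycoprotein receptor with which hepatocytes clear desialylated plasma glycoproteins, read 7.495, 6.999 and 7.240 with SLU7 siRNA, against 9.171, 9.099 and 9.512 with control siRNA. The groups were far apart, and ASGR1 fell by 2.02 ± 0.26 (SE) log2 units, or 4.04-fold, with a limma adjusted p of 0.0371. The difference was -1.60 in the outlying pair and -2.22 in the remaining 4 arrays. With any 1 array left out the call was lost (adjusted p from 0.0591 to 0.18, with no cluster of the table called), while the difference ran from -2.14 to -1.89. The other subunit, ASGR2, read 6.83, 7.33 and 7.67 with SLU7 siRNA and 8.29, 8.33 and 8.60 with control siRNA, a difference of -1.13 ± 0.29 (adjusted p = 0.133), which was -1.49 in the outlying pair and -0.95 in the remaining 4 arrays. The other 13 of the 14 measured receptors did not pass, and the list had 9 members below 0 and a median of -0.38. Values for the transferrin receptor TFRC were 8.63 ± 0.16 with SLU7 siRNA and 8.57 ± 0.15 with control siRNA (SD, n = 3), and those for FCGRT, which recycles albumin, were 10.31 ± 0.16 with SLU7 siRNA and 10.60 ± 0.16 with control siRNA.

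**Figure D3:**
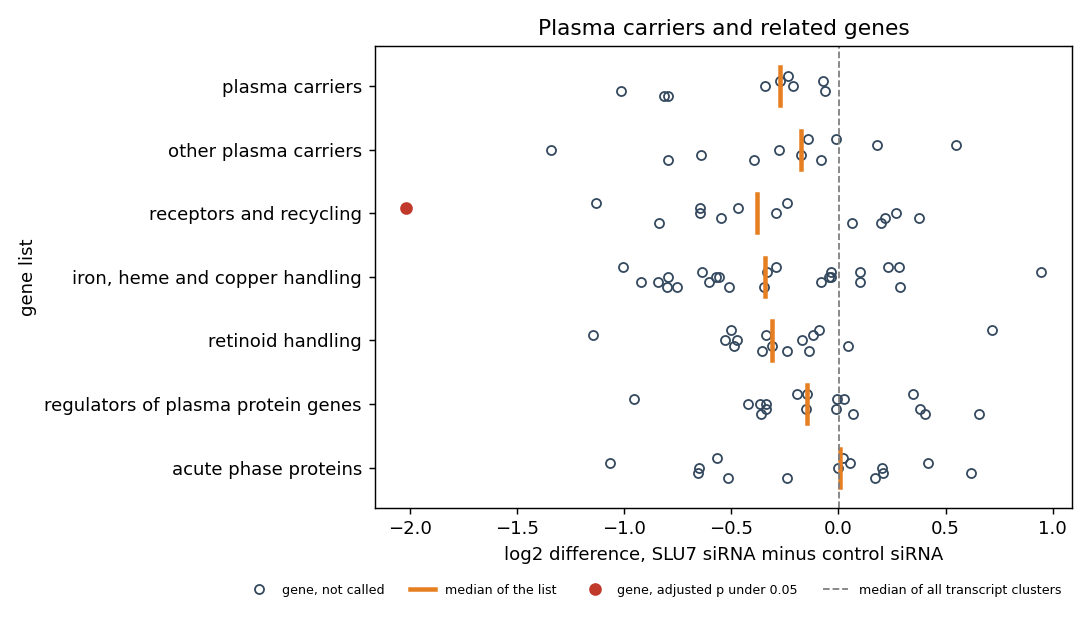
Log2 difference, SLU7 siRNA minus control siRNA (x axis), of every measured gene in 7 lists (y axis), with the median of each list in orange and that of all clusters as a dashed line. The filled point at the far left is ASGR1 at -2.02, and all other genes shown are open because they were not called.

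The other related lists held no call, apart from ASGR1 again among the hepatocyte and hepatoma markers. Among 11 other measured plasma carriers, 9 were below 0 with a median of -0.18. In that list ORM2, an acid glycoprotein that binds drugs, differed by -0.08 ± 0.27 (SE) log2 units and LRG1 by -0.39 ± 0.34. Iron, heme and copper handling had 18 of 24 genes below 0 and a median of -0.34. There the heme exporter FLVCR1 differed by 0.94 ± 0.33 (adjusted p = 0.264) and the copper pump ATP7A by -1.005 ± 0.350 (adjusted p = 0.26). Retinoid handling had a median of -0.31, and 13 of its 15 measured genes were below 0. The largest differences among its brighter genes were in ALDH1A1, a retinal dehydrogenase (0.72 ± 0.32), and RDH11, a retinal reductase (-0.53 ± 0.27).

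Of 17 measured regulators of plasma protein genes, 11 were below 0, with a median of -0.15. PROX1, a homeobox factor of hepatocytes, differed by -0.95 ± 0.33 log2 units (adjusted p = 0.258) and GATA4 by 0.66 ± 0.81. Acute phase proteins outside the carriers were evenly divided, with 7 of 14 below 0 and a median of 0.01. Among them FGB, the fibrinogen beta chain, differed by -1.07 ± 0.40 (adjusted p = 0.303) and SAA4 by -0.66 ± 0.35 (adjusted p = 0.506).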

How the data were processed

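Total RNA of 6 samples was hybridised to exon arrays, 1 sample per array. The deposited values are log2 expression values per transcript cluster; RMA is named in the submitters' processing notes, and a core-level chip file from aroma.affymetrix was used, per the labels. The log2 scale was read from the range (0.958 to 14.5). For the genome build, nothing was given in the sources used, and neither is whether the arrays were normalized together. RMA summarises all core probe sets of a gene, so altered exon use may shift a gene's value. The number of arrays limits the precision (median SE of a difference 0.312).

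Of 18708 clusters, 16287 had 1 symbol in GEO's platform annotation, 674 had several and 1747 had none there. Symbols were updated through RefSeq (GRCh38.p14), 2179 of them. limma (version 3.58.1, R 4.3.3) was fitted with lmFit and eBayes on all clusters, group as the only term and no filter, with Benjamini-Hochberg adjustment. On simulated data its effect sizes, null p and share of false calls were checked. No minimum was set there for the share of true changes called, so a gene not called may still have changed. The named genes are the 9 measured members, SLU7, called members of 9 related lists or otherwise the 2 with the largest difference among those brighter than the median cluster, and the 3 clusters closest to ALB and to TF. KRT18, APOA1, AFP, SERPINA1, APOH, GPC3, PTPRC, ASGR2, TFRC and FCGRT were added after their values were seen. Members and lists were chosen with earlier results of these data known. The alternatives were a replicate block, a filter on dim clusters, quantile normalization, median centring, a trend with robust prior, array weights, the mean of a gene's clusters, a threshold of 0.01 and each array left out. A block for an outlying pair of arrays, and the remaining 4 arrays alone, were chosen after seeing the data.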

Additional observations from a re-analysis of the deposited data

How the results depend on the processing

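Of 130 values of single carriers under the alternatives, 119 kept their direction and their side of the threshold. Part of this was fixed in advance. The 2 blocks, the filter on dim clusters and the trend with robust prior change the p but not the difference. The mean of a gene's clusters could change the difference of TF only. AHSG passed with array weights and with the block for the outlying pair of arrays, so that 1 carrier was called in each. At an unadjusted limma p under 0.05, the count of carriers was 1 with the replicate block and with the trend and robust prior. It was 3 with quantile normalization, and 1 to 3 with any 1 array left out. Directions turned for TF with the mean of its clusters (0.33), and for VTN with array weights (0.078) and in the remaining 4 arrays (0.16). With 1 array left out, the difference ran from -0.30 to 0.17 for TTR, from -0.38 to 2.07e-04 for HPX and from -0.31 to 0.34 for VTN. The median of the carriers ran from -0.37 to -0.20 in those 6 analyses. Without the dimmer clusters only TF, AHSG, AMBP and RBP4 were tested, and all 4 were below 0. The cause of these changes was not tested.

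Over the whole table, 25 clusters were called higher and 56 lower. The counts were 196 and 278 without the dimmer clusters (9354 tested), 173 and 268 with the trend and robust prior, 221 and 354 with array weights, and 357 and 426 with the block for the outlying pair, which was read off these same arrays. They were 0 and 0 in the remaining 4 arrays (2922 at an unadjusted limma p under 0.05), at the threshold of 0.01, and with any 1 array left out (1833 to 2573 at an unadjusted p under 0.05). The replicate block also gave 0 and 0 (1845 at an unadjusted p under 0.05). Deviations from the group mean of same-numbered arrays correlated at -0.38, -0.31 and 0.14. No SLU7 siRNA array correlated best with the control array of its own number. With 3 arrays per group, these correlations cannot settle whether same-numbered arrays were paired. SLU7 passed at -1.51 without the dimmer clusters, with the trend and robust prior and with the block for the outlying pair, and at -1.61 with array weights.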
